A study of Homo sapiens with 9 samples.

Results

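Cell cycle and DNA replication genes, 52 of the 20030 genes in the deposited count table, were followed across 9 RNA sequencing libraries of the hepatocellular carcinoma (HCC) cell line MHCC97L and of 2 resistant lines made from it. The members were matched by gene symbol, all 52 were found, and they were described in 3 classes, which held 15 regulators of G1 and of the entry into S phase, 12 genes of S phase and 25 genes of mitosis. MHCC97L cells were labelled as having had no treatment, and the resistant lines carry the name of their drug as treatment. The labels used here do not say whether drug was present at harvest. MHCC97L-SRC cells had been grown in rising amounts of saracatinib, an inhibitor of Src family kinases, and were stably resistant at 4 μmol/L. MHCC97L-OXA cells were stably resistant at 2 μmol/L to oxaliplatin, a platinum drug that crosslinks DNA. All lines were kept in the same serum-containing medium, and each line was sequenced in 3 libraries of poly(A) RNA. Each resistant line came from a single selection, so that resistance and other properties of that line cannot be told apart.

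The cell cycle is driven by cyclin-dependent kinases (CDKs) and the cyclins that activate them. In G1, D-type cyclins with CDK4 and CDK6, and then E-type cyclins with CDK2, phosphorylate the RB1 protein and release E2F factors, whose targets include the enzymes and helicases of DNA replication. Small CDK inhibitors such as CDKN1B and CDKN2B hold cells in G1. Later in the cycle, MYBL2 and FOXM1 act with the MuvB proteins on the promoters of mitotic genes.

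The libraries held 16970486 to 18209213 counted reads. Values per library are given as CPM, the count of a gene scaled by the library size and its TMM factor, and the floor of 3 counts lay at 0.165 to 0.177 CPM. Reads amplified by PCR and counted without molecular tags are not separate molecules, so that these floors hold for counting error alone. Defining liver markers were absent: ALB, AFP, APOB and TTR had 0 counts in all 9 libraries. Of 5 epithelial genes, KRT8 and KRT18 carried a sum of 2940 to 7160 CPM, while the mean CPM of KRT19, CDH1 and EPCAM was at most 0.95 in any line, and the leukocyte markers PTPRC, CD3E and LYZ were at 0. The libraries differed in how their counts followed the GC content of genes. Across 12249 genes, Spearman's rho between GC content and a library's log2 CPM (taken as the difference from the mean of the 9 libraries) was -0.78 in MHCC97L replicate 1, 0.30 in replicate 2 and -0.26 in replicate 3. The same rho was 0.17 to 0.31 in MHCC97L-OXA and 0.54, 0.70 and 0.19 in MHCC97L-SRC. A fit on GC content and length explained 66.1% of the variance of these differences in MHCC97L replicate 1, while the remaining libraries ranged from 3.63% to 47.2%. Counts are therefore given with and without that library and a correction for GC content and length, and so are the values of many single members. The paper describes its comparison of MHCC97L with MHCC97L-SRC as 3 independent experiments, without saying what was repeated. The labels do not say that replicates were separate cultures, so p-values measure the spread between these libraries, which may be technical. In bulk RNA, fewer cells in a phase of the cycle and less RNA per cell cannot be told apart.

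GC content was known for all 52 members and spanned 35.3% to 64.9% of the longest transcript, with a median of 51.5% for the G1 regulators, 49.1% for the S phase genes and 44.3% for the mitotic genes. To show how far members differ, a coding stretch of 120 bases is given for the members with the lowest and the highest GC content of the mitotic class, CENPE and MYBL2, and of the S phase class, MCM6 and CDT1, with G and C in capitals. On GRCh38 the stretches were chr4:103159107-103159226 on the minus strand in exon 22 of CENPE, chr20:43702636-43702755 on the plus strand in exon 7 of MYBL2, chr2:135868675-135868794 on the minus strand in exon 4 of MCM6 and chr16:88803885-88804004 on the plus strand in exon 1 of CDT1. Their own GC contents were 32.5%, 65.8%, 48.3% and 84.2%.
CENPE: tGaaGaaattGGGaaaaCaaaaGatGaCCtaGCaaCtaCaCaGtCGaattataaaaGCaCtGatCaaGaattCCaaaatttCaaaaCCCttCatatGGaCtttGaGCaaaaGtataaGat
MYBL2: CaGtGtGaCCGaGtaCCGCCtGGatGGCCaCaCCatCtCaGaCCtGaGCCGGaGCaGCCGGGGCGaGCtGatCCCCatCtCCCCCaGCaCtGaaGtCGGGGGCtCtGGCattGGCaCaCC
MCM6: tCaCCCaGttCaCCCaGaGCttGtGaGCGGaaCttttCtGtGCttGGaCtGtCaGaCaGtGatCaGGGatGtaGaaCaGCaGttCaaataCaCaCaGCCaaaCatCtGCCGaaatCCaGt
CDT1: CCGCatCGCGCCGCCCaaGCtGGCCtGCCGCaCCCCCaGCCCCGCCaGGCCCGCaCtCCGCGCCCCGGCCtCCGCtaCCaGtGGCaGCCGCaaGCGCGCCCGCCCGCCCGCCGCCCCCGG

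Promoters of members whose RNA is described below were searched for the letters of 3 motifs that cell cycle promoters are known for. These were CCAAT (bound by NF-Y), the cell cycle homology region CHR, written as TTTGAA or TTTAAA, and the E2F sites TTTCCCGC, TTTCGCGC, TTTGCCGC and TTTGGCGC, each on both strands of the 250 bases before the start in RefSeq on GRCh38.p14. None of these words contains another, though neighbouring matches can share a base, as a CHR and a CCAAT match do in MKI67. The table held promoters of 41 members, 20 of them mitotic, 10 of S phase and 11 of G1 regulators. A CHR and a CCAAT match occurred together in 11 of the 20 mitotic promoters, or 55%, and in 6.7% of the 14994 promoters of genes in the count table. An E2F match occurred in 6 of the 10 S phase promoters, in 3 of the 11 G1 promoters and in 0 of the 20 mitotic promoters, against 3.65% of all 14994. A match is a description of letters and not of a site in use. The 120 bases before the start are shown for 3 members with an E2F match whose RNA differed in a corrected test given below, CDT1, TYMS and CDC25A, and for 3 mitotic members with CHR and CCAAT matches, CCNB1, PLK1 and MKI67, with all matches in capitals. They were chr16:88803669-88803788 on the plus strand for CDT1, chr18:657533-657652 on the plus strand for TYMS, chr3:48188418-48188537 on the minus strand for CDC25A, chr5:69167030-69167149 on the plus strand for CCNB1, chr16:23678769-23678888 on the plus strand for PLK1 and chr10:128126424-128126543 on the minus strand for MKI67.
CDT1: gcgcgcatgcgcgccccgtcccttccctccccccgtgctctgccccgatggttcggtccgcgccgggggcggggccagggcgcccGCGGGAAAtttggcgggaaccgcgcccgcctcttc
TYMS: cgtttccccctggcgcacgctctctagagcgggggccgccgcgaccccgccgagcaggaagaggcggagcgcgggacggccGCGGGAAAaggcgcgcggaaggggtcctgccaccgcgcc
CDC25A: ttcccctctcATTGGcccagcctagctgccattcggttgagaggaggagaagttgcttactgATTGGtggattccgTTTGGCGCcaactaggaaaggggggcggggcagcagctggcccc
CCNB1: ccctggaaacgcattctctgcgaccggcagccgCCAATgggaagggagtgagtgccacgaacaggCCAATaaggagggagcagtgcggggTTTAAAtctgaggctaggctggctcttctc
PLK1: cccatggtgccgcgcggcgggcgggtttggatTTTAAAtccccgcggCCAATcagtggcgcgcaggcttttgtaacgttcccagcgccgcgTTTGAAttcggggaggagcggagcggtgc
MKI67: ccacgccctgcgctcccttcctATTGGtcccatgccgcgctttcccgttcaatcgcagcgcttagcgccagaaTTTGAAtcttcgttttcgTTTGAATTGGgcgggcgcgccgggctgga

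Per transcript length, in FPKM, the members covered a wide range. MYBL2, the transcription factor of the MuvB complex, was the highest in MHCC97L at 273 ± 63.1 FPKM (SD, n = 3), and CDC20, the activator of the anaphase-promoting complex, had 209 ± 53.7 FPKM. FOXM1 (148 ± 27.97 FPKM), the mitotic kinase PLK1 (132 ± 28.6 FPKM) and the chromosomal passenger protein BIRC5 (124 ± 34.8 FPKM) came next, and these levels lay within each other's spread. The lowest were CCND2 (0.043 ± 0.0089 FPKM), the kinetochore motor CENPE (0.51 ± 0.48 FPKM) and CDK6 (1.06 ± 0.93 FPKM), and the SD of CENPE and of CDK6 within MHCC97L was close to their mean. CCND2, cyclin D2, had 2 to 12 counts per library and was the member left out of the edgeR tests, so that 51 of the 52 were tested in each comparison.

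**Figure D1:**
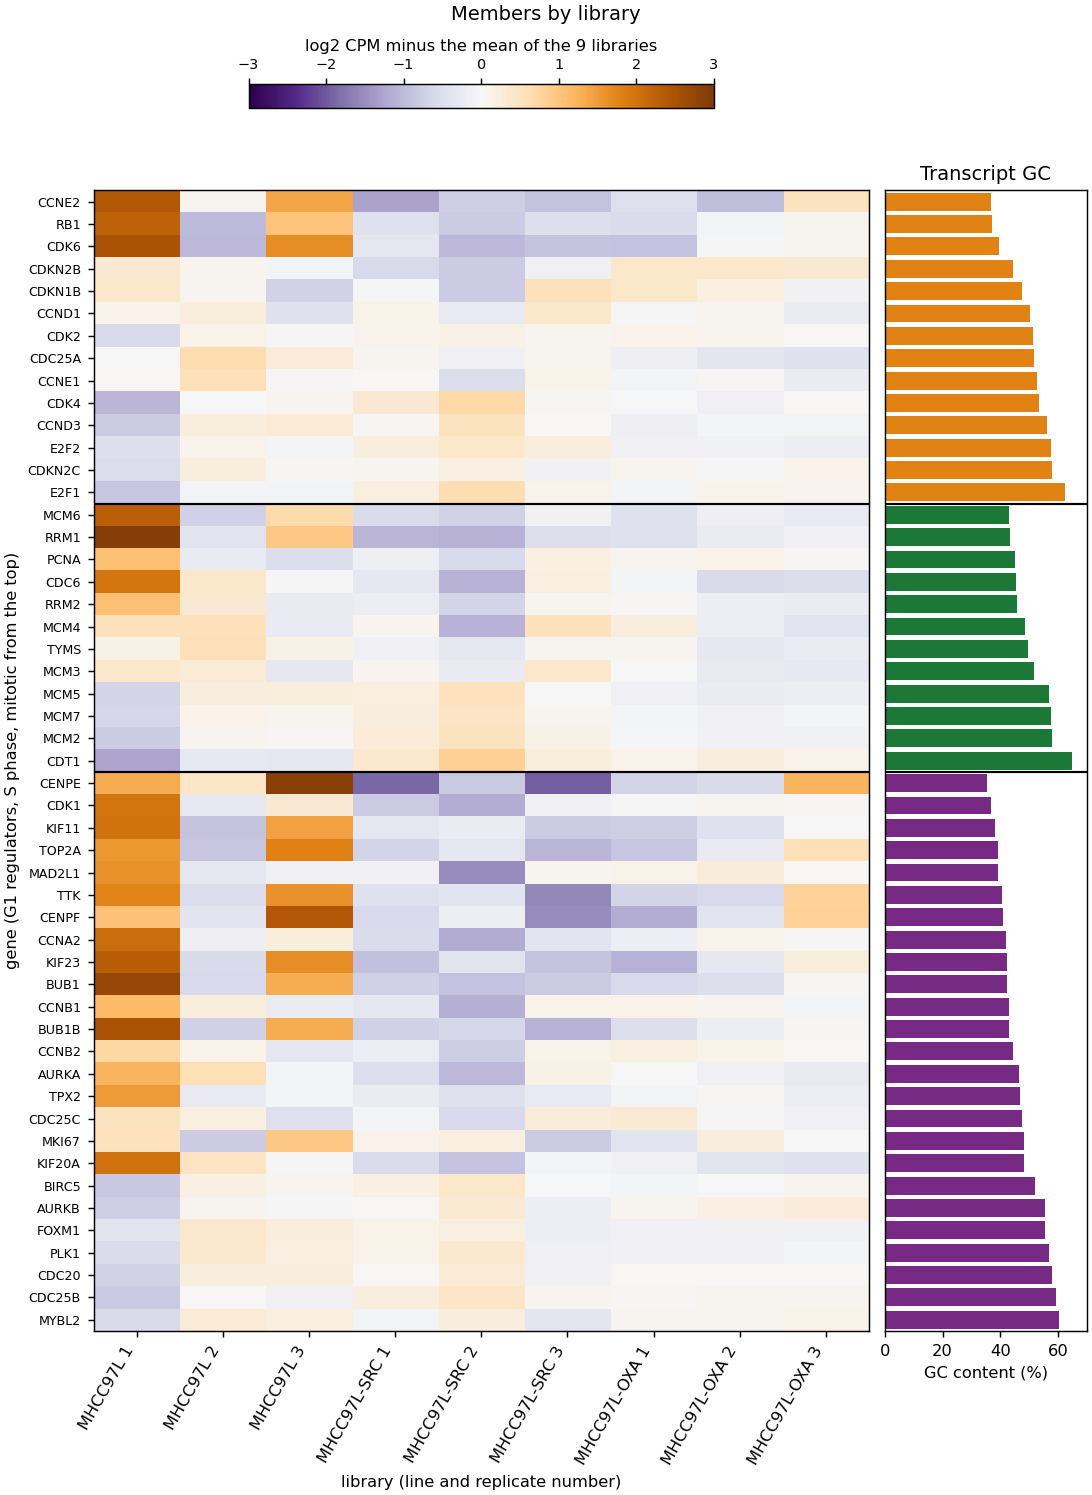
Heat map of 51 members (rows, by class and by rising GC content) in the 9 libraries (columns), coloured by log2 CPM minus the mean of the 9 libraries, with the GC content of each member's longest transcript as bars on the right (%). MHCC97L replicate 1 is high for members of low GC content and low for members of high GC content in all 3 classes, and MHCC97L replicate 2 does not share this pattern.

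In MHCC97L-SRC against MHCC97L, 0 of 51 members passed an adjusted p of 0.05 by edgeR's quasi-likelihood test, where 2.13% of the 12037 genes tested passed. At an unadjusted p under 0.05, 1 member was higher and 18 were lower, against 9.4% and 20.1% of all genes, and the lower ones were 12 of the 25 mitotic genes, 3 of the 12 S phase genes and 3 of the 14 G1 regulators tested. The median log2 fold change of the members was -0.51, beside -0.16 over all genes tested. By class it was -1.11 for mitotic genes, -0.43 for S phase genes and 0.01 for G1 regulators. The lowest adjusted p of a member was 0.0565, for CENPE. DESeq2's Wald test called 16 members, 1 higher and 15 lower, where it called 14.6% of all genes, and limma on FPKM called 0. The counts depended on which MHCC97L library was included. Without MHCC97L replicate 1 edgeR called 2 members, CDT1 higher and CENPE lower (5.52% of all genes), without replicate 2 it called 19 (27.8%), and without replicate 3 it called 0 (0.18%).

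In MHCC97L-OXA against MHCC97L, 0 of 51 members passed, where 0.953% of 12064 genes did. At an unadjusted p under 0.05 edgeR had 1 member higher and 13 lower, against 8.84% and 13.6% of all genes, and the lower ones were 6 mitotic genes, 4 S phase genes and 3 G1 regulators. The median log2 fold change was -0.48 for the members and -0.19 for all genes, with -0.79 for mitotic genes, -0.44 for S phase genes and -0.09 for G1 regulators. The lowest adjusted p of a member was 0.192. DESeq2 called 2 members, BUB1 and RRM1, both lower, where it called 6.12% of all genes, and limma on FPKM called 0. Without MHCC97L replicate 1 edgeR called 8 members, with CDKN2B, CDT1 and PCNA higher and CCND3, CDC25A, FOXM1, PLK1 and MCM5 lower (18.5% of all genes). Without replicate 2 it called 16, all lower (22.1%), and without replicate 3 it called 0 (0.0164%). Both comparisons share the MHCC97L libraries, so the 2 sets of values are not independent.

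The CPM of the 3 libraries of a resistant line lay wholly outside those of MHCC97L for a minority of members. In MHCC97L-SRC, 5 members were higher in this way (E2F1, E2F2, CDC25B, CDT1 and MCM2) and 8 were lower (CCNE2, CDKN2B, BUB1, CCNA2, CENPE, KIF20A, RRM1 and TYMS), where 18.7% of all genes were higher and 11.2% lower. In MHCC97L-OXA, 5 members were higher (CDKN2B, E2F1, AURKB, CDC25B and CDT1) and 4 were lower (CDC25A, KIF20A, CDC6 and TYMS), against 19.6% and 8.42% of all genes. These CPM were not corrected for GC content. The higher members of MHCC97L-SRC had 57.5% to 64.9% GC and the lower ones 35.3% to 49.8%. In MHCC97L-OXA the higher ones had 44.6% to 64.9% and the lower ones 45.5% to 51.65%.

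Among the G1 regulators, cyclin D1 is the activator of CDK4 and CDK6. CCND1 had 106.4, 118 and 73.4 CPM in MHCC97L, 107, 82.6 and 131 CPM in MHCC97L-SRC and 97.0, 103 and 85.4 CPM in MHCC97L-OXA, and the 3 ranges overlapped. Its log2 fold changes were 0.07 ± 0.27 (SE) in MHCC97L-SRC and -0.11 ± 0.23 in MHCC97L-OXA, with adjusted p of 0.878 and 0.767 by edgeR. CDK4, its kinase partner, had 126, 256 and 276 CPM in MHCC97L, 325, 418 and 267 CPM in MHCC97L-SRC and 258, 239 and 262 CPM in MHCC97L-OXA. MHCC97L replicate 1 was the lowest of the 9 libraries for CDK4, and its log2 fold change in MHCC97L-SRC, the highest of a G1 regulator, was 0.58 ± 0.32 (SE, adjusted p = 0.250). It was 0.32 ± 0.22 with GC content and length corrected and 0.34 ± 0.20 without MHCC97L replicate 1. CDK6, the other partner of D-type cyclins, had 19.4, 1.59 and 10.8 CPM in MHCC97L, 2.61, 1.59 and 1.77 CPM in MHCC97L-SRC and 1.73, 3.27 and 3.57 CPM in MHCC97L-OXA. Its level in MHCC97L replicate 2 equalled that of the lowest MHCC97L-SRC library and lay below MHCC97L-OXA. Its log2 fold change in MHCC97L-OXA, the lowest of a G1 regulator there, was -1.97 ± 0.81 (SE, adjusted p = 0.214). The correction for GC content and length brought it to -0.70 ± 0.41, above CCNE2 (-0.81) and CDC25A (-0.73), and without MHCC97L replicate 1 it was -1.08 ± 0.78. Over all single libraries left out it ran from -2.40 to -1.08, with a lowest adjusted p of 0.013 by edgeR.

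CCNE2, cyclin E2, which activates CDK2 at the start of S phase, had 24.1, 4.76 and 12.04 CPM in MHCC97L, 1.78, 2.65 and 2.38 CPM in MHCC97L-SRC and 3.23, 2.27 and 6.41 CPM in MHCC97L-OXA. All MHCC97L-SRC libraries lay below all MHCC97L libraries, while MHCC97L-OXA overlapped them. Its log2 fold change in MHCC97L-SRC was -2.65 ± 0.64 (SE) with an adjusted p of 0.0769 by edgeR. Corrected for GC content and length, CCNE2 passed at -1.23 ± 0.27 (SE, adjusted p = 0.0321). Exons of CCNE2 share 1629 bases with INTS8 on the opposite strand, whose counts were 741, 85 and 275 in MHCC97L and 68 to 85 in MHCC97L-SRC. The part of these reads in the CCNE2 counts was not tested.

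RB1, the repressor of E2F factors, had 30.3, 3.11 and 13.1 CPM in MHCC97L, 4.69, 3.64 and 4.53 CPM in MHCC97L-SRC and 4.29, 5.99 and 6.58 CPM in MHCC97L-OXA. MHCC97L replicate 2 lay below every library of the resistant lines and the other MHCC97L libraries above them. The log2 fold change of RB1 was -1.92 ± 0.73 (SE) in MHCC97L-SRC and -1.54 ± 0.73 in MHCC97L-OXA, with adjusted p of 0.135 and 0.241, and it came to -0.31 ± 0.31 and -0.27 ± 0.30 after the correction. It was -0.91 ± 0.55 and -0.49 ± 0.60 without MHCC97L replicate 1. Over all single libraries left out it ran from -2.35 to -0.91 and from -1.94 to -0.49. The lowest adjusted p by edgeR in these fits were 0.0039 and 0.018. E2F1, the activator E2F factor, had 104.3, 178 and 177 CPM in MHCC97L, 215, 289 and 202 CPM in MHCC97L-SRC and 182, 202 and 200.3 CPM in MHCC97L-OXA. Both resistant lines lay above MHCC97L in every library. The log2 fold changes of E2F1 were 0.58 ± 0.27 (SE, adjusted p = 0.191) and 0.29 ± 0.24 (adjusted p = 0.436), and after the correction they were 0.13 ± 0.09 and -0.0018 ± 0.085. They were 0.41 ± 0.19 and 0.18 ± 0.08 without MHCC97L replicate 1.

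CDC25A, the phosphatase that activates CDK2, had 65.0, 103 and 79.2 CPM in MHCC97L, 69.1, 60.2 and 68.0 CPM in MHCC97L-SRC and 58.6, 51.1 and 48.2 CPM in MHCC97L-OXA. MHCC97L-OXA lay below MHCC97L in all libraries, and MHCC97L-SRC overlapped MHCC97L. The log2 fold change in MHCC97L-OXA was -0.69 ± 0.23 (SE, adjusted p = 0.192) and hardly changed with the correction, at -0.73 ± 0.13 (adjusted p = 0.0172), where CDC25A passed the test. GENCODE release 29 places it at chr3:48157146-48188402 on the minus strand of GRCh38. CDKN1B, the inhibitor p27, had 149, 115 and 68.6 CPM in MHCC97L, 108, 64.5 and 164 CPM in MHCC97L-SRC and 148, 127 and 104.1 CPM in MHCC97L-OXA, with overlapping ranges in all lines and log2 fold changes of -0.03 ± 0.39 (SE) and 0.13 ± 0.30. The sign of the first changed under alternatives.

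**Figure D2:**
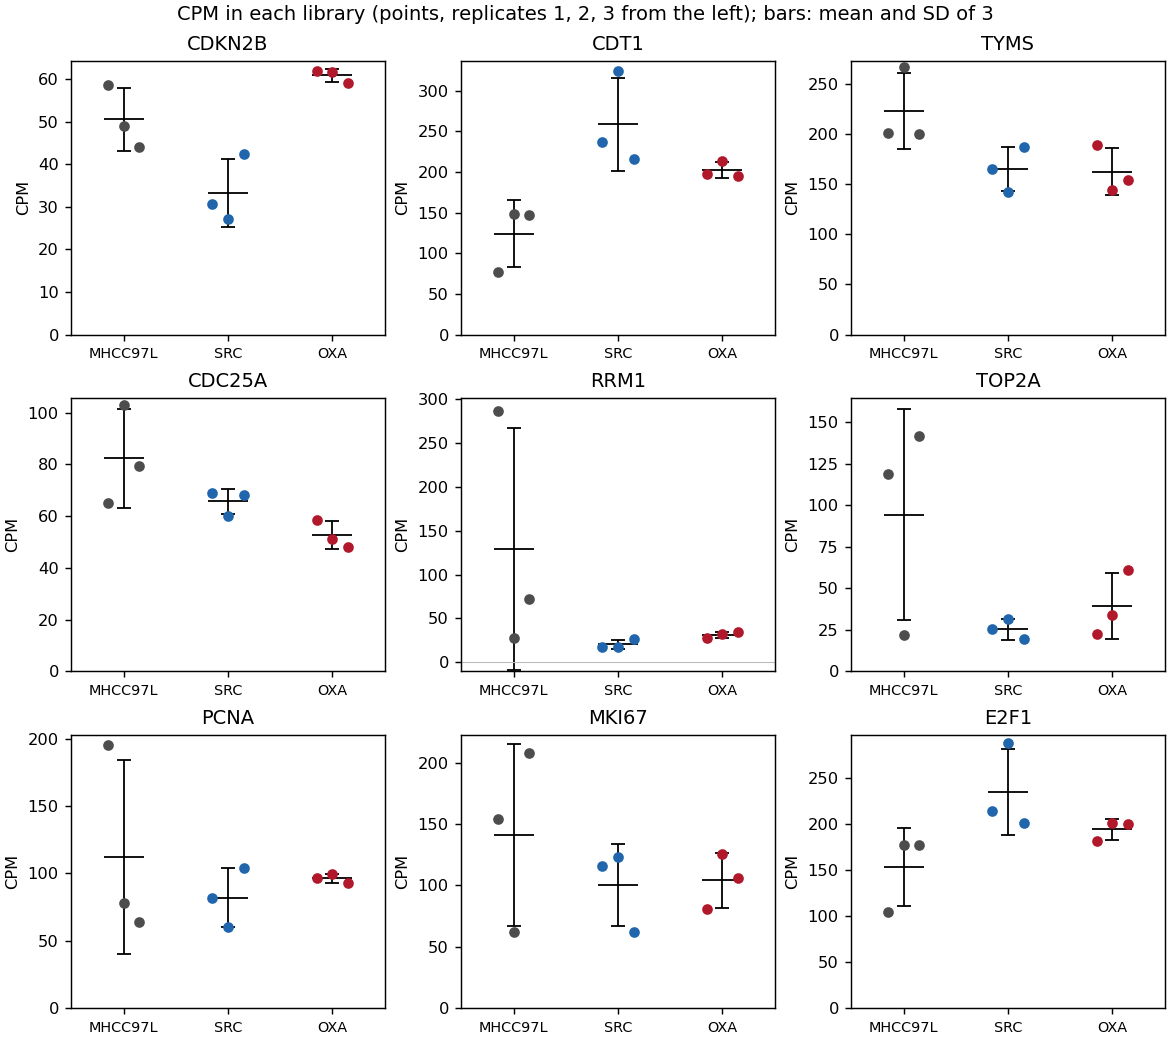
CPM of 9 members in each library (points, replicates 1 to 3 from the left within a line), with the mean and SD of 3 libraries as bars, for MHCC97L, MHCC97L-SRC (SRC) and MHCC97L-OXA (OXA). RRM1, TOP2A and PCNA spread widely within MHCC97L, while CDKN2B separates MHCC97L-SRC from MHCC97L-OXA in every library.

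Of the S phase genes, CDT1 had the highest log2 fold change in both resistant lines. CDT1 loads the MCM helicase at origins of replication. It had 76.6, 148 and 147 CPM in MHCC97L, 236, 324 and 216 CPM in MHCC97L-SRC and 198, 213 and 195 CPM in MHCC97L-OXA. Every library of a resistant line lay above every MHCC97L library. Its log2 fold change was 1.02 ± 0.30 (SE) in MHCC97L-SRC, with an adjusted p of 0.1045 by edgeR, and 0.65 ± 0.27 in MHCC97L-OXA, with an adjusted p of 0.213. After the correction CDT1 passed in MHCC97L-SRC at 0.61 ± 0.12 (SE, adjusted p = 0.0254) and did not in MHCC97L-OXA at 0.40 ± 0.11 (adjusted p = 0.06495). CDT1 lies at chr16:88803213-88809258 on the plus strand and has the highest GC content of the members, 64.9%. The median log2 fold change of genes within 2 percentage points of this GC content was 0.40 in MHCC97L-SRC.

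TYMS, thymidylate synthase, which makes the thymidine nucleotide of DNA, had 202, 266 and 201 CPM in MHCC97L, 166, 143 and 187 CPM in MHCC97L-SRC and 189, 145 and 154 CPM in MHCC97L-OXA. All libraries of the resistant lines lay below all MHCC97L libraries. The log2 fold changes were -0.47 ± 0.22 (SE, adjusted p = 0.189) and -0.50 ± 0.20 (adjusted p = 0.213), and with the correction TYMS passed in both lines, at -0.56 ± 0.10 (adjusted p = 0.0160) and -0.61 ± 0.10 (adjusted p = 0.0134). It lies at chr18:657604-673578 on the plus strand. Its exons share 967 bases with ENOSF1 and 183 with TYMSOS on the opposite strand. ENOSF1 had 1078, 663 and 572 counts in MHCC97L, 312 to 598 in MHCC97L-SRC and 453 to 607 in MHCC97L-OXA, against 3730 to 4537 TYMS counts in MHCC97L. TYMSOS had 16 to 33 counts in MHCC97L and 40 to 84 in the resistant lines. The kit kept the strand, but whether the counting used it is not given in the sources used here, so that these reads cannot be told apart.

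RRM1, the large subunit of ribonucleotide reductase, had the largest spread of the S phase genes relative to its mean (SD over mean of 1.07 within MHCC97L), with 286, 28.01 and 72.6 CPM in MHCC97L. It had 17.9, 17.1 and 26.8 CPM in MHCC97L-SRC and 27.7, 32.3 and 34.2 CPM in MHCC97L-OXA. MHCC97L replicate 1 stood far above all other libraries, and replicate 2 lay just above the highest MHCC97L-SRC library and inside the range of MHCC97L-OXA. The log2 fold changes, the lowest of an S phase gene in each comparison, were -2.71 ± 0.75 (SE, adjusted p = 0.0942) and -2.11 ± 0.74 (adjusted p = 0.197), and the correction brought them to -1.60 ± 0.46 and -1.18 ± 0.46. Leaving out MHCC97L replicate 1 gave -1.28 ± 0.39 (adjusted p = 0.0940) and -0.64 ± 0.39 (adjusted p = 0.311). Over all single libraries left out the values ran from -3.13 to -1.28 and from -2.51 to -0.64. The lowest adjusted p by edgeR in these fits were 0.0018 and 0.013. PCNA, the sliding clamp of the replicative polymerases, had 195, 77.6 and 64.0 CPM in MHCC97L, 81.8, 60.4 and 103.8 CPM in MHCC97L-SRC and 96.3, 99.6 and 93.0 CPM in MHCC97L-OXA. MHCC97L replicate 1 stood above all other libraries for PCNA. Its log2 fold changes of -0.51 ± 0.44 (SE) and -0.29 ± 0.41 had adjusted p of 0.444 and 0.670, with the correction they were -0.05 ± 0.24 and 0.06 ± 0.22, and without MHCC97L replicate 1 they were 0.22 and 0.50, the second of which passed in that fit.

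The MCM2 to MCM7 genes encode the subunits of the helicase that unwinds DNA at origins, and their ranges in a line differed between subunits. In MHCC97L, MCM6 spanned 17.6 to 141 CPM and MCM3 205 to 332 CPM, and in MHCC97L-SRC, MCM4 spanned 102 to 323 CPM. MCM2 had 326, 593 and 575 CPM in MHCC97L, 676, 795 and 629 CPM in MHCC97L-SRC and 547, 519 and 522 CPM in MHCC97L-OXA, so that MHCC97L-SRC lay above both other lines and MHCC97L-OXA inside the MHCC97L range. Of the 12 S phase genes, 4 had a positive log2 fold change in MHCC97L-SRC and 8 a negative one, and in MHCC97L-OXA 2 were positive and 10 negative.

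Mitotic genes had the lowest median log2 fold change of the 3 classes in both comparisons with MHCC97L, and also the lowest median GC content. Set beside genes within 2 percentage points of their GC content, S phase genes were the lowest class in MHCC97L-OXA (median difference -0.32, mitotic -0.23). In MHCC97L-SRC mitotic genes stayed the lowest (-0.35, S phase -0.14). CENPE, the kinetochore motor that moves chromosomes to the spindle equator, had 5.88, 3.11 and 17.5 CPM in MHCC97L, 0.53, 1.26 and 0.50 CPM in MHCC97L-SRC and 1.39, 1.496 and 5.498 CPM in MHCC97L-OXA. MHCC97L-SRC lay below MHCC97L in all libraries. Its log2 fold change in MHCC97L-SRC, the lowest of all members, was -3.59 ± 0.78 (SE, adjusted p = 0.0565), and after the correction it was -2.29 ± 0.76 (adjusted p = 0.108). BUB1, a kinase of the spindle checkpoint, had 90.9, 9.04 and 34.7 CPM in MHCC97L, 8.37, 7.28 and 7.95 CPM in MHCC97L-SRC and 9.03, 9.86 and 14.1 CPM in MHCC97L-OXA. MHCC97L replicate 2 lay beside the resistant lines for BUB1 and the other MHCC97L libraries far above. The log2 fold change in MHCC97L-OXA, the lowest of a mitotic gene there, was -2.10 ± 0.73 (SE, adjusted p = 0.196), and -1.12 ± 0.44 after the correction (adjusted p = 0.147). It was -0.96 ± 0.56 without MHCC97L replicate 1. Over all single libraries left out it ran from -2.51 to -0.96, with a lowest adjusted p of 0.012 by edgeR.

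TOP2A, the topoisomerase that untangles sister chromatids, had 119, 22.1 and 142 CPM in MHCC97L, 25.3, 31.8 and 19.2 CPM in MHCC97L-SRC and 22.3, 33.9 and 61.1 CPM in MHCC97L-OXA. CDK1, the kinase of mitotic entry, had 110.1, 23.2 and 35.9 CPM in MHCC97L, 16.3, 12.6 and 25.7 CPM in MHCC97L-SRC and 27.8, 29.5 and 29.1 CPM in MHCC97L-OXA. For both genes MHCC97L replicate 2 fell inside the range of the resistant lines or at its edge, and the groups overlapped. The log2 fold changes of TOP2A were -1.96 ± 0.60 (SE, adjusted p = 0.109) in MHCC97L-SRC and -1.35 ± 0.65 (adjusted p = 0.247) in MHCC97L-OXA, and those of CDK1 were -1.69 ± 0.59 (adjusted p = 0.122) and -1.04 ± 0.54 (adjusted p = 0.265). With the correction TOP2A came to -0.60 ± 0.49 and -0.37 ± 0.50, and CDK1 to -0.42 ± 0.27 and -0.09 ± 0.20. Without MHCC97L replicate 1 CDK1 was at -0.69 ± 0.35 and 0.0091 ± 0.21, and TOP2A at -1.69 ± 0.58 and -1.04 ± 0.78. Over all single libraries left out CDK1 ran from -2.02 to -0.69 and from -1.34 to 0.0091. TOP2A ran from -2.38 to -1.54 and from -1.82 to -0.92. The lowest adjusted p by edgeR in these fits were 0.0093 and 0.046 for CDK1 and 0.0016 and 0.017 for TOP2A.

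CCNB1, cyclin B1, the partner of CDK1, had 383, 204 and 147 CPM in MHCC97L, 138, 77.9 and 189.5 CPM in MHCC97L-SRC and 188, 179 and 166 CPM in MHCC97L-OXA. MKI67, the Ki-67 protein that coats mitotic chromosomes and is widely used as a proliferation marker, had 154, 61.7 and 208 CPM in MHCC97L, 116, 123 and 62.0 CPM in MHCC97L-SRC and 80.9, 126 and 106 CPM in MHCC97L-OXA. All 3 lines overlapped for both genes. For CCNB1 the log2 fold changes were -0.91 ± 0.43 (SE, adjusted p = 0.191) and -0.52 ± 0.34 (adjusted p = 0.347), and for MKI67 they were -0.55 ± 0.45 (adjusted p = 0.420) and -0.51 ± 0.42 (adjusted p = 0.449). CCNB1 came to -0.23 ± 0.25 and 0.0023 ± 0.18 after the correction, and to -0.36 ± 0.33 and 0.072 ± 0.13 without MHCC97L replicate 1. After the correction the MKI67 values were -0.16 ± 0.48 and -0.23 ± 0.42, smaller than their standard errors, and a difference in MKI67 was not detectable with these libraries.

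AURKA, the spindle pole kinase, had 169.7, 111 and 70.5 CPM in MHCC97L, 52.0, 35.9 and 80.6 CPM in MHCC97L-SRC and 71.7, 66.7 and 60.7 CPM in MHCC97L-OXA. FOXM1, the transcription factor of mitotic genes, had 672, 1158 and 1042 CPM in MHCC97L, 970.1, 1020 and 787 CPM in MHCC97L-SRC and 811, 829.7 and 835 CPM in MHCC97L-OXA. In both genes MHCC97L-OXA overlapped MHCC97L before the correction. With the correction both passed in MHCC97L-OXA, AURKA at -0.62 ± 0.14 (SE, adjusted p = 0.0349) and FOXM1 at -0.41 ± 0.09 (adjusted p = 0.0317), from -0.87 ± 0.32 (adjusted p = 0.201) and -0.26 ± 0.23 (adjusted p = 0.483) without it. Uncorrected and without MHCC97L replicate 1, AURKA was at -0.39 ± 0.18 (adjusted p = 0.187) and FOXM1 at -0.36 ± 0.06 (adjusted p = 0.0119). Exons of FOXM1 share 781 bases with ITFG2 on the opposite strand, which had 400, 482 and 533 counts in the MHCC97L libraries, against 337, 327 and 341 for MHCC97L-OXA. ITFG2 was thus lower in MHCC97L-OXA too, and its part in the FOXM1 counts was not tested.

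MYBL2 had 817, 1503 and 1408 CPM in MHCC97L, 1151, 1418 and 941 CPM in MHCC97L-SRC and 1301, 1297 and 1331 CPM in MHCC97L-OXA. MHCC97L replicate 1 was the lowest of the 9 libraries for MYBL2, a gene of 60.5% GC. The log2 fold change in MHCC97L-SRC was -0.13 ± 0.295 (SE, adjusted p = 0.785) and became -0.52 ± 0.10 (adjusted p = 0.0231) with the correction and -0.31 ± 0.19 without MHCC97L replicate 1. CDC25B, a phosphatase that activates CDK1, had 191, 340.3 and 309 CPM in MHCC97L, 395, 454 and 359 CPM in MHCC97L-SRC and 348, 353 and 350.0 CPM in MHCC97L-OXA, and its change of 0.48 ± 0.26 (SE, adjusted p = 0.235) was the highest of a mitotic gene in MHCC97L-SRC. With the correction it was 0.168 ± 0.094, below BIRC5 (0.173) and MAD2L1 (0.216), and without MHCC97L replicate 1 it was 0.32 ± 0.16. AURKB, the kinase of the chromosomal passenger complex, had 106, 186 and 172 CPM in MHCC97L, 179.7, 222 and 158 CPM in MHCC97L-SRC and 189.0, 200.3 and 214 CPM in MHCC97L-OXA, and it was the highest of the mitotic genes in MHCC97L-OXA at 0.33 ± 0.24 (SE, adjusted p = 0.385), a value that came to -0.0085 ± 0.098 with the correction. CDC25B and AURKB lay above MHCC97L in all MHCC97L-OXA libraries.

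Across the 51 members the log2 fold change was higher at higher GC content, with Pearson's r of 0.87 in MHCC97L-SRC and 0.79 in MHCC97L-OXA, which describes genes that share libraries and has no p. Over all genes the fold change was also higher at higher GC content. Genes under 40% GC had a median log2 fold change of -1.57 in MHCC97L-SRC, and genes over 60% GC had 0.39, and for MHCC97L-OXA these medians were -1.21 and 0.25. The 8 members under 40% GC had medians of -1.94 and -1.63, and the 3 over 60% GC had 0.58 and 0.29. Each member was also set beside the median of all genes within 2 percentage points of its own GC content. In MHCC97L-SRC, 17 members lay above that median and 34 below, with a median difference of -0.25, and in MHCC97L-OXA 15 lay above and 36 below, with a median difference of -0.23. By class the median difference in MHCC97L-SRC was -0.35 for mitotic genes, -0.14 for S phase genes and -0.01 for G1 regulators, and in MHCC97L-OXA it was -0.23, -0.32 and -0.17.

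**Figure D3:**
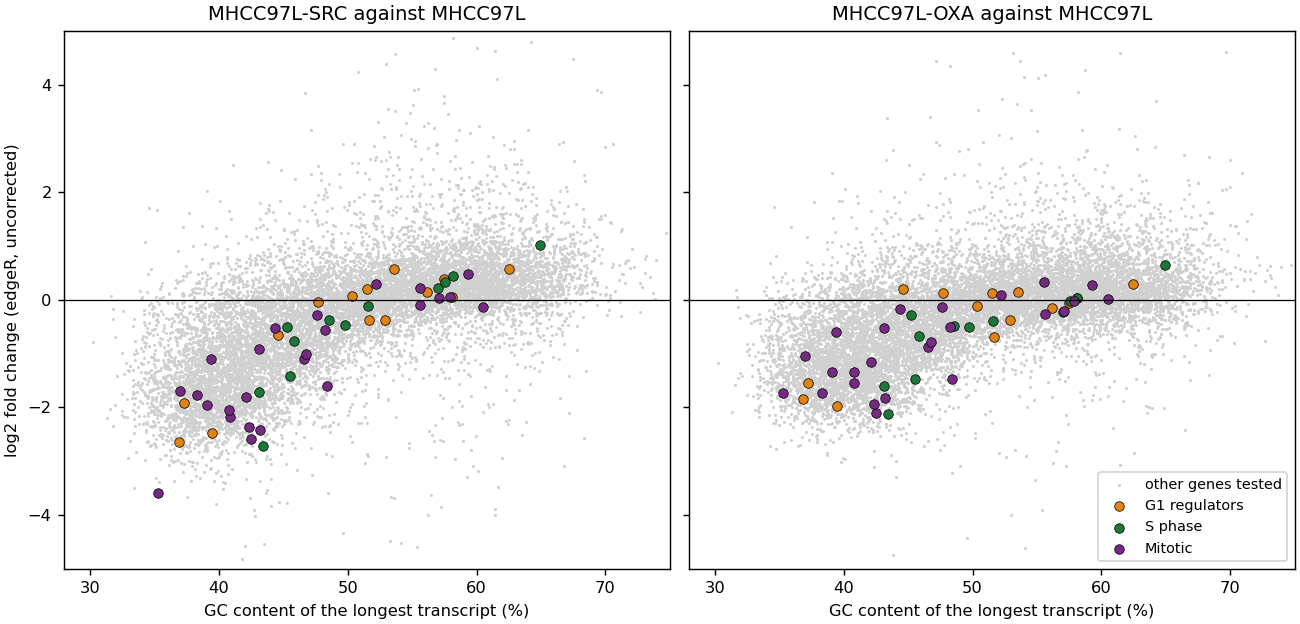
Log2 fold change by edgeR without correction (vertical axis) against the GC content of the longest transcript (horizontal axis, %) for members by class and for all other genes tested (grey), in MHCC97L-SRC and MHCC97L-OXA against MHCC97L. Genes beyond a log2 fold change of 5 in either direction lie outside the axes, and both the members (r of 0.87 and 0.79, n = 51) and the other genes are higher at higher GC content, with 34 and 36 of the 51 members below the median of genes of like GC content.

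The correction fits each library's deviation on GC content and length across all genes and carries the fit into edgeR as offsets. By construction it also removes a difference between lines that follows GC content or length. With it, 4 members passed in MHCC97L-SRC, CDT1 higher and CCNE2, MYBL2 and TYMS lower, where 10.6% of all genes passed. In MHCC97L-OXA 4 passed, TYMS, CDC25A, AURKA and FOXM1, all lower, where 12.9% of all genes passed. Both shares of members, 4 of 51, were below those of all genes. The median log2 fold change of the members became -0.29 in each comparison, beside -0.05 and -0.08 over all genes. The class medians in MHCC97L-SRC were then -0.42 for mitotic genes, -0.20 for S phase genes and -0.13 for G1 regulators, and in MHCC97L-OXA they were -0.33, -0.31 and -0.18. Of 51 members, 38 were negative for MHCC97L-SRC and 42 for MHCC97L-OXA. A relation with GC content remained among the members, with r of 0.57 and 0.33.

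Without MHCC97L replicate 1 and with the correction, 7 members passed in MHCC97L-SRC, where 11.3% of all genes did: CDT1 higher, and CDC25A, CDC20, CENPE, KIF20A, MYBL2 and TYMS lower. In MHCC97L-OXA 14 passed in this fit, where 19.6% of all genes did, with CDT1, CDKN2B and PCNA higher. The 11 lower ones were CCND3, CDC25A, AURKA, CDC20, FOXM1, KIF20A, MYBL2, PLK1, MCM5, MCM7 and TYMS. The members called with all 6 libraries were called again in this fit except CCNE2 in MHCC97L-SRC.

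**Figure D4:**
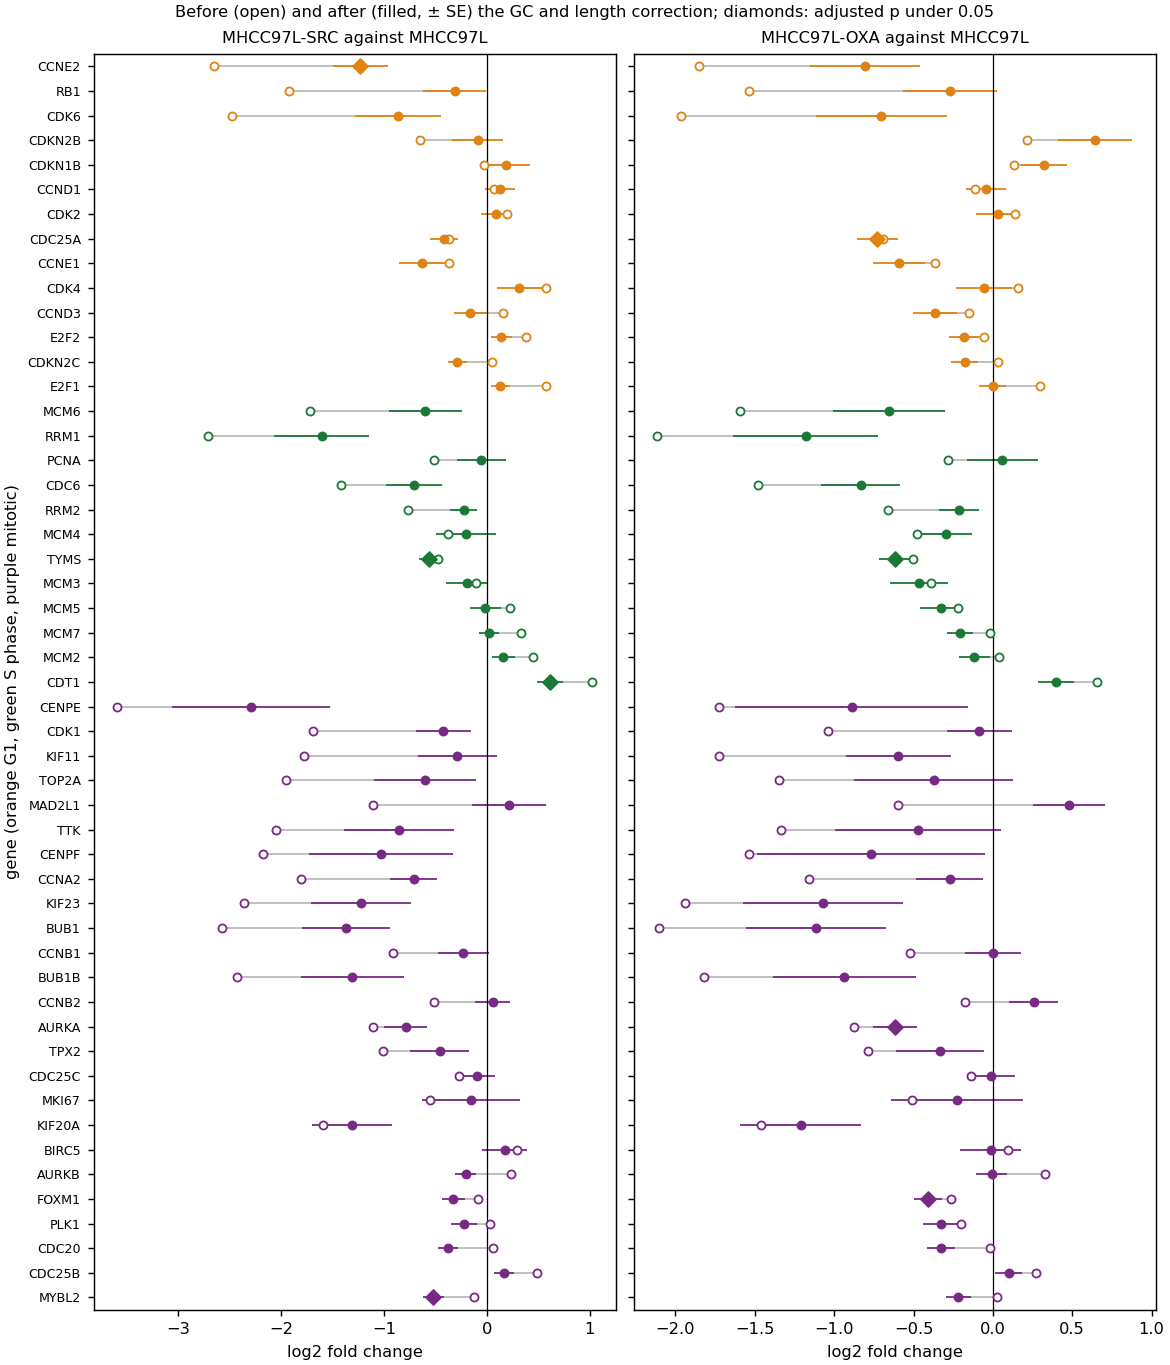
Log2 fold change (horizontal axis) of 51 members (rows, ordered by class and rising GC content) before the correction (open circles) and after it (filled, with the SE as a bar), in MHCC97L-SRC and MHCC97L-OXA against MHCC97L; diamonds mark an adjusted p under 0.05 after the correction. Members of low GC content at the top of each class move furthest towards 0, and 4 members in each panel carry a diamond.

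The class means per library show where the differences sit. Mean log2 CPM of the 25 mitotic genes, as the difference from the mean of the 9 libraries, was 0.96, -0.11 and 0.62 in the MHCC97L replicates 1, 2 and 3. The 3 libraries of MHCC97L-SRC were at -0.35, -0.41 and -0.46, those of MHCC97L-OXA at -0.26, -0.11 and 0.12, and MHCC97L replicate 2 lay inside the range of MHCC97L-OXA. With the correction the MHCC97L values became 0.28, 0.03 and 0.51, those of MHCC97L-SRC -0.21, -0.09 and -0.38 and those of MHCC97L-OXA -0.19, -0.09 and 0.15. MHCC97L replicate 1 had the highest mitotic mean before the correction and replicate 3 after it. The S phase mean was 0.59, 0.08 and 0.04 in MHCC97L and between -0.29 and 0.11 in the resistant lines, and after the correction it was 0.37, 0.07 and 0.14 against -0.17 to 0.05.

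**Figure D5:**
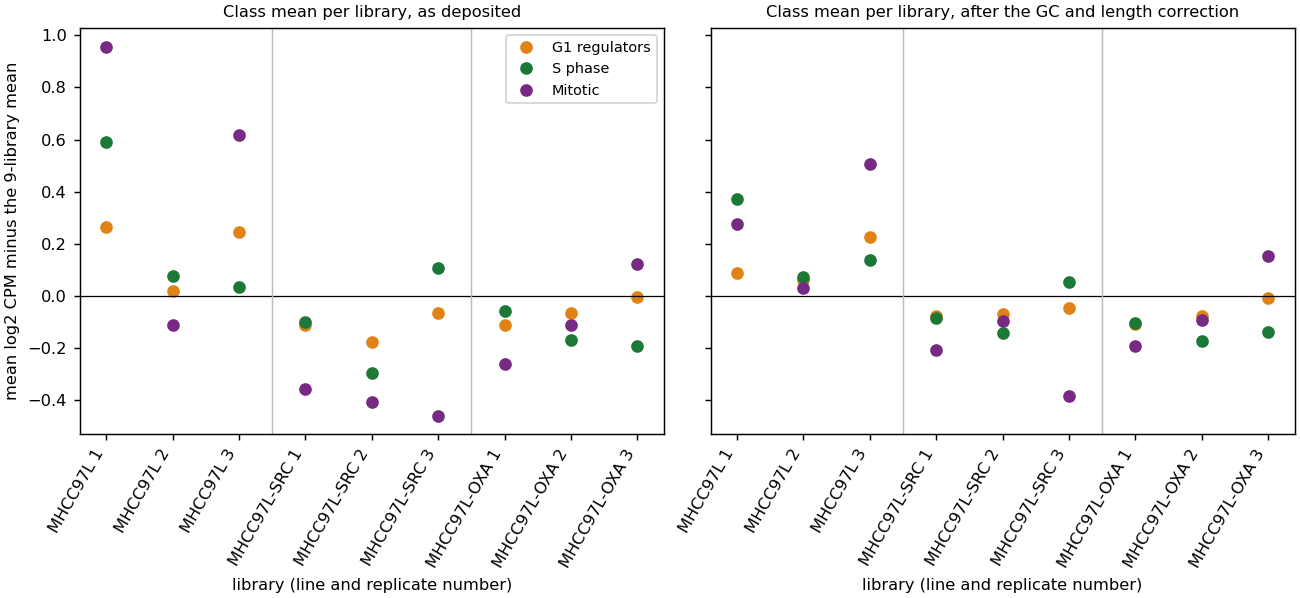
Mean over the tested members of each class of log2 CPM minus the mean of the 9 libraries (vertical axis) for each library (horizontal axis), as deposited on the left and with GC content and length corrected on the right. Before the correction mitotic means reach 0.96 and 0.62 in MHCC97L replicates 1 and 3 but -0.11 in replicate 2.

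MHCC97L-SRC and MHCC97L-OXA were also compared directly, which leaves out the MHCC97L libraries. Of 51 members 1 passed, CDKN2B, where 4.64% of the 11994 genes tested did. At an unadjusted p under 0.05, 7 members were higher in MHCC97L-SRC and 6 lower, against 9.75% and 9.76% of all genes. The CPM of the resistant lines did not overlap for 18 members, where 26.5% of all genes did not. Among those higher in MHCC97L-SRC were 5 G1 regulators (CCND3, CDC25A, CDK4, E2F1 and E2F2), 4 S phase genes (CDT1, MCM2, MCM5 and MCM7) and CDC25B. Those lower in MHCC97L-SRC were CDKN2B, RRM1 and 6 mitotic genes, BUB1, BUB1B, CCNA2, CDK1, CENPE and TPX2. This split followed GC content: all the higher ones had 51.65% or more and all the lower ones 46.8% or less. Across the 51 members Pearson's r between log2 fold change and GC content was 0.79 in this comparison, and 0.58 after the correction. A split by stage and a split by GC content cannot be told apart here. The median log2 fold change was -0.23 for mitotic genes, 0.09 for S phase genes and 0.03 for G1 regulators, beside -0.02 for all genes. After the correction the class medians were -0.20, 0.11 and 0.007.

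CDKN2B encodes the inhibitor p15 of CDK4 and CDK6 and is known as a target of TGF-beta signalling. It had 58.6, 49.0 and 44.1 CPM in MHCC97L, 30.6, 27.1 and 42.4 CPM in MHCC97L-SRC and 61.9, 61.7 and 59.2 CPM in MHCC97L-OXA. The means were 50.6 ± 7.38, 33.3 ± 8.01 and 60.9 ± 1.51 CPM (SD, n = 3). MHCC97L-SRC lay below both other lines in every library and MHCC97L-OXA above both. The log2 fold change of CDKN2B in MHCC97L-SRC relative to MHCC97L-OXA was -0.86 ± 0.18 (SE), with an adjusted p of 0.0249, and -0.73 ± 0.09 after the correction (adjusted p = 0.0022). Its adjusted p was above 0.05 without MHCC97L-SRC replicate 1 and without any MHCC97L-OXA replicate, and log2 fold changes over the 6 omissions ran from -1.07 to -0.74. Nor did it pass with all 9 libraries in the fit or by limma on FPKM. Against MHCC97L neither line passed, at -0.65 ± 0.29 (SE, adjusted p = 0.178) for MHCC97L-SRC and 0.21 ± 0.22 (adjusted p = 0.541) for MHCC97L-OXA. The first of these came to -0.09 ± 0.25 and the second to 0.64 ± 0.23 with the correction, with adjusted p of 0.833 and 0.124. Without MHCC97L replicate 1 the second was 0.44 ± 0.08 (adjusted p = 0.0151) and passed.

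GENCODE release 29 places CDKN2B at chr9:22002903-22009363 on the minus strand of GRCh38, with no exon base shared with another gene, though the antisense gene CDKN2B-AS1 spans it. Its neighbour and paralog CDKN2A shares a run of 80 bases with it, over which reads could have been assigned to either. CDKN2A had 10892, 13095 and 9779 counts in MHCC97L-SRC, against 10263, 10985 and 11284 counts in the libraries of MHCC97L-OXA. For CDKN2B the counts were 516, 409 and 767 in the first line and 1110, 1113 and 1044 in the second. The ranges of CDKN2A overlapped between the lines.

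After the correction 5 members differed between MHCC97L-SRC and MHCC97L-OXA, where 9.64% of all genes did. CDKN2B and MYBL2 were lower, MYBL2 at -0.31 ± 0.07 (SE, adjusted p = 0.0302). CDC25A (0.31 ± 0.08, adjusted p = 0.0430), the G1 activator E2F2 (0.33 ± 0.07, adjusted p = 0.0294) and the helicase subunit MCM2 (0.28 ± 0.06, adjusted p = 0.0237) were higher. E2F2 had 113, 128 and 112 CPM in MHCC97L-SRC, 88.5, 89.5 and 83.8 CPM in MHCC97L-OXA and 68.4, 103 and 91.9 CPM in MHCC97L. Without the correction the 3 higher genes had log2 fold changes of 0.33 ± 0.13, 0.44 ± 0.11 and 0.41 ± 0.11 with adjusted p of 0.205, 0.0522 and 0.0669. A fit without MHCC97L-SRC replicate 3, the library with the lowest GC relation of its line, called 13 members (13.3% of all genes), among them CCNB1, CCNB2, CDK1 and CCNA2 lower and CDK4, MCM5 and MCM7 higher, while the fit without MHCC97L-SRC replicate 2 called 5 (8.51%).

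Further genes of the same stages, which are no members, were counted in 3 lists of 27 G1 regulators, 46 replication genes and 51 mitotic genes. By edgeR 0 of them passed in any of the 3 comparisons. At an unadjusted p under 0.05 in MHCC97L-SRC against MHCC97L, where 20.1% of all genes were lower and 9.4% higher, 25 of 51 mitotic genes and 17 of 46 replication genes were lower and 0 higher, and of 26 G1 regulators tested 6 were lower and 2 higher. In MHCC97L-OXA against MHCC97L, where 13.6% of all genes were lower and 8.84% higher, 14 mitotic genes were lower and 2 higher, 15 replication genes were lower and 0 higher, and 3 G1 regulators were lower and 2 higher. Their uncorrected median log2 fold changes in MHCC97L-SRC were -1.30, -0.68 and -0.81 for the mitotic, replication and G1 lists, and in MHCC97L-OXA -0.74, -0.73 and -0.77. With GC content and length corrected, every one of these medians was smaller in size. The mitotic list then had -0.47 for MHCC97L-SRC, the replication list -0.34 and the G1 list -0.11. Corrected values for MHCC97L-OXA, lists in the same order, were -0.34, -0.37 and -0.08. After the correction, which called 12.9% of all genes in MHCC97L-OXA and 10.6% in MHCC97L-SRC, 9 of 46 replication genes were called lower in the first and 3 in the second, with 0 higher in either. There 1 mitotic gene was called lower in each line, and of the G1 list 2 were called higher and 1 lower in MHCC97L-OXA and 1 each way in MHCC97L-SRC.

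Markers of other cell types were measured beside the members. Fibroblast markers summed to 140.3 to 199 CPM in MHCC97L, 95.0 to 99.7 CPM in MHCC97L-SRC and 169 to 185 CPM in MHCC97L-OXA, with 7 genes listed and COL1A2 at 0 in all libraries of both resistant lines. Most of it came from COL1A1 (means of 60.2, 65.8 and 77.6 CPM, lines in the same order), DCN (65.0, 17.6 and 66.1) and PDGFRB (33.2, 12.5 and 31.3). Leukocyte markers summed to 44.1 to 78.3, 75.7 to 108 and 150.1 to 154 CPM over 6 genes, of which PTPRC, CD3E and LYZ were at 0. Endothelial markers summed to 2.15 to 2.76, 12.3 to 15.2 and 1.45 to 1.81 CPM over 5 genes, with KDR at 0 in all libraries. The higher sum in MHCC97L-SRC was mostly CDH5 (means of 1.22, 12.4 and 0.50 CPM), while PECAM1 had 1.06, 1.48 and 1.07 CPM. The part of such cell types in the members' values was not tested.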

How the data were processed

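Each line gave 3 RNA libraries. The authors deposited raw read counts per gene, without normalization, and FPKM values, scaled by length and by sequencing depth, of 20030 genes. The submitters' processing notes name Trimmomatic 0.36, HISAT2 2.2.1.0 and GRCh38.p12. The counting program and its strand setting are not given in the sources used here.

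Counts were tested with edgeR 4.0.16 (quasi-likelihood test, R 4.3.3) on the 6 libraries of each comparison, after filterByExpr with a minimum count of 10 and TMM normalization, with Benjamini-Hochberg adjustment over all genes tested and a threshold of 0.05. A standard error was taken as the size of the log2 fold change over the root of its F statistic. Deposited FPKM values gave levels between genes and the limma 3.58.1 fits on log2(FPKM + 1) and log2(FPKM + 0.1). Fold changes there are on that scale and understate the change of low genes. DESeq2 1.42.0 was an alternative. The edgeR fits, uncorrected and corrected, were tested on simulated counts, and the limma fits were not. Where the simulated counts carried a GC relation, it was linear and lay in a single library, whereas several libraries here had one. The simulation therefore cannot show how the correction performs on these libraries.

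GC content and length were those of the longest GENCODE release 29 transcript, which 19336 of 20030 genes had (13518 matched through RefSeq and 5818 through the symbol). For the correction, each library's deviation in log2 CPM was fitted on natural splines with 5 degrees of freedom each for GC content and log2 length, and the fit entered edgeR as offsets. Promoters came from RefSeq. Figures were drawn with matplotlib 3.10.9 in Python 3.11.15, with pandas 2.3.3.

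Values per library are given for members with an adjusted p under 0.05 by the uncorrected or corrected edgeR fit, for the highest and lowest log2 fold change of each class against MHCC97L, and for PCNA, CCND1, TOP2A, MKI67, CDK1, CCNB1, E2F1, RB1, CDKN1B and CDKN2B, 26 members in all. Members, lists and tests were chosen with earlier results of these data known. Overlapping genes, and the ranges of MCM3, MCM4 and MCM6, were looked up after values were seen. Of the 26 members 8 share exon bases with another gene and 6 have a pseudogene that carries their name, AURKA, BUB1, CDK4, MKI67, PCNA and TYMS, whose reads could be split.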

Additional observations from a re-analysis of the deposited data

Results flagged for a closer look

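CDKN2B is listed because MHCC97L-SRC and MHCC97L-OXA differed from each other in the direct test between them. The log2 fold change of MHCC97L-SRC relative to MHCC97L-OXA was -0.86 (edgeR, adjusted p = 0.0249), CPM were lower in 3 of 3 MHCC97L-SRC libraries than in MHCC97L and higher in 3 of 3 MHCC97L-OXA libraries, and neither difference from MHCC97L passed on its own. The call was lost without MHCC97L-SRC replicate 1 and without each MHCC97L-OXA replicate, where log2 fold changes were -0.81 and -0.87 to -0.85. No group had enough samples to be searched for an outlying library.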

How the results depend on the processing

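The count of called members depended on the fit, and the share of all genes called in the same fit is given in brackets. For MHCC97L-SRC against MHCC97L it was 16 with DESeq2 (14.6%), 1 with DESeq2's size factors in edgeR (2.58%), 6 without a filter (4.63%), 4 with the GC and length correction (10.6%), 10 with all 9 libraries in 1 fit (16%) and 7 with the correction and without MHCC97L replicate 1 (11.3%), and leaving out each library gave 0 to 19, the latter without MHCC97L replicate 2 (27.8%). For MHCC97L-OXA it was 2 with DESeq2 (6.12%), 4 with the correction (12.9%), 14 with the correction and without MHCC97L replicate 1 (19.6%), and 0 to 16 over the libraries left out, the latter without MHCC97L replicate 2 (22.1%). Between the resistant lines it was 4 with DESeq2 (5.59%), 3 with total counts (4.78%), 5 with the correction (9.64%), 0 with all 9 libraries (0.703%) and 0 with either limma fit (4.06% and 3.95%), and 0 to 13 over the libraries left out, where the median of the members ran from -0.28, without MHCC97L-SRC replicate 3, to -0.017. The causes were not tested. The medians of the members in both comparisons with MHCC97L stayed negative in all 11 alternatives and in 7 fits with a library left out each. In the uncorrected and corrected fits the median over all genes was negative too. The fits share libraries, so the sign alone does not set the members apart from other genes.

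Whether replicate numbers pair the libraries is not given in the labels used here. Correlations of same-numbered deviations ran from -0.63 to 0.21 in MHCC97L-SRC against MHCC97L and from -0.21 to 0.41 in MHCC97L-OXA against MHCC97L. Between the resistant lines they ran from -0.27 to 0.03. The deviations carry each library's relation with GC content, so these correlations cannot settle the pairing. With the replicate number as a block 12 members were called in MHCC97L-SRC against MHCC97L, where 8.21% of all genes were, 0 in MHCC97L-OXA (0.763%) and 1 between the resistant lines (3.39%), and with the block and the correction 0, 0 and 1 (1.83%, 4.97% and 3.94%).

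Some members changed sign. In MHCC97L-SRC, CDKN1B was 0.056 with DESeq2, 0.055 with its size factors, 0.0038 without a filter, 0.19 with the correction, 0.16 with the correction and block, and 0.27 with the correction and without MHCC97L replicate 1. CCND1 was -0.024 and -0.025 by limma with 1 and 0.1 added to FPKM. PCNA was 0.25 with the correction and without MHCC97L replicate 1. Over the libraries left out, CDKN1B ran from -0.40 to 0.30, CCND1 from -0.10 to 0.26, MYBL2 from -0.31 to 0.056 and PCNA from -0.79 to 0.22. In MHCC97L-OXA the correction gave AURKB -0.0085, E2F1 -0.0018, CCNB1 0.0023 and PCNA 0.058, and with the block added -0.0084, -0.0025, 0.028 and 0.11. With the correction and without MHCC97L replicate 1 CDK1 was 0.13 and PCNA 0.36. Over the libraries left out, CCNB1 ran from -0.78 to 0.072, CCND1 from -0.28 to 0.082, CDK1 from -1.34 to 0.0091, CDKN1B from -0.11 to 0.52 and PCNA from -0.56 to 0.50. Depth limits low members such as CCND2, whose 2 to 12 counts were too few to test.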
